A study of Mus musculus with 8 samples.

Results

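In the aorta-gonad-mesonephros region (AGM) of E10.5 mouse embryos, vEC_2 and vEC_3 were the names of 2 clusters of venous endothelial cells (EC) that the study's deposited annotation set apart. They are compared here in wild type (WT) embryos. Members were all cells that this annotation placed in either cluster and in a WT library, which gave 1562 cells of vEC_2 and 1428 cells of vEC_3, or 2990 of 15168 cells in the series and of 8423 WT cells. The question was whether these neighbouring clusters differed in cell cycle phase or in the vascular identity genes they expressed.

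The study used CITE-seq, in which RNA molecules are counted by unique molecular identifiers (UMIs) and a few surface proteins by antibody tags, on cells sorted for the endothelial protein CD31. The 5 WT libraries (WT 1 to WT 5) came from C57BL/6 embryos and the 3 Mff_Cre libraries from Meis1-flox/VE-Cre embryos, all at day 10.5, and each library held cells of 2 to 5 pooled embryos. In the Meis1-flox/VE-Cre embryos a Cre driven by the VE-cadherin promoter, active in endothelium and in the blood cells that arise from it, deletes 1 floxed exon of Meis1. UMIs of Meis1 outside that exon are still counted, so the Meis1 levels of 2.61 to 3.04 CPM (counts per 1000000 of the sum) in vEC_2 and 5.45 to 8.29 CPM in vEC_3 of these 3 libraries, beside 2.30 to 3.76 and 5.45 to 8.38 CPM in WT, do not check the label. Cells of WT 5 carry names that begin with "Mf", while the annotation and the label give WT.

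Endothelial cells of early arteries and veins divide while they take on their identity. Arterial cells are marked by the Notch ligand Dll4 and by Efnb2, and venous cells by the transcription factor Nr2f2 (COUP-TFII) and the receptor Ephb4. Lymphatic endothelium arises from veins that switch on Prox1. A dividing cell makes replication genes in S phase and, before mitosis, a set of G2/M genes whose promoters often carry a CHR element (TTTGAA) and CCAAT boxes.

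Each WT library held 165 to 523 cells of vEC_2 and 120 to 472 of vEC_3. Among the vEC_1 to vEC_4 cells of a WT library, 27.6 to 34.4% were vEC_2 and 25.0 to 29.1% were vEC_3. Median UMIs per cell were 28252, 29396, 33676, 32464 and 13582 in vEC_2 of WT 1 to WT 5, and 27741, 29044, 27953, 31678 and 13058 in vEC_3. The vEC_2 median was higher in 5 of 5 libraries, by 1579 ± 2322 (SD, n = 5), which fell to 543 without WT 3 (exact sign-flip permutation p = 0.0625, two-sided, the smallest that 5 libraries allow). WT 5 had fewer UMIs per cell than the other 4 in both clusters. After thinning each cell to 5000 UMIs, the median number of genes differed by -25.2 ± 18.9 (SD, n = 5; exact p = 0.125). The UMI sums tested below held 3528312 to 17321815 UMIs. No more than 4 cell barcodes were shared by any pair of the 8 libraries, and no WT cell of either cluster was called a doublet.

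Both clusters were endothelial by their markers. The 20 pan-endothelial genes summed to 5532 to 6084 CPM per WT library in vEC_2 and to 5804 to 6428 CPM in vEC_3, and Cdh5, which encodes VE-cadherin, averaged 333 and 340 CPM. The venous label was met in part: Nr2f2 averaged 120 CPM in vEC_2 and 215 CPM in vEC_3, above the 37.5 CPM of the arterial cluster aEC. The arterial gap-junction gene Gja5 was nearly absent, with 2 UMIs in all of vEC_2 and 1 in all of vEC_3. Hematopoietic markers (10 genes, 0 of them at 0 over the WT libraries) summed to 15.8 to 27.2 CPM in vEC_2 and 10.8 to 24.3 CPM in vEC_3, and 9 erythroid markers to 19.7 to 147 and 9.64 to 161 CPM. The 10 mesenchymal and mural markers summed to 5.14 to 10.5 CPM in vEC_2 and to 18.2 to 22.2 CPM in vEC_3, with 0 markers at 0 and no overlap between the clusters. Col3a1, a fibrillar collagen, averaged 1.36 CPM in vEC_2 and 5.97 CPM in vEC_3, and the transcription factor Twist1 1.97 and 7.96 CPM. The 8 epithelial and neural markers summed to 1.24 to 3.05 and 2.70 to 3.59 CPM. The part of these other markers in the differences below was not tested.

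Nearly all cells of both clusters were in cycle. After thinning to 5000 UMIs, a vEC_2 cell held a median of 77 UMIs of the 43 S phase and 54 G2/M genes, and a vEC_3 cell also held 77. The lowest cell had 32 in vEC_2 and 26 in vEC_3. In the other endothelial clusters the median was 38 in aEC, 66 in vEC_1 and 43 in vEC_4. Per library, the mean of these UMIs was 79.4 ± 3.23 in vEC_2 and 80.0 ± 3.77 in vEC_3 (SD, n = 5). The difference of -0.557 ± 1.54 UMIs was smaller than the spread between libraries (exact sign-flip p = 0.562).

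By list, a vEC_2 cell held 20.03 ± 1.19 UMIs of the S phase genes and a vEC_3 cell 21.5 ± 1.55 (SD, n = 5), lower in vEC_2 in 5 of 5 libraries (exact sign-flip p = 0.0625). UMIs of the G2/M genes were 59.4 ± 2.36 and 58.5 ± 3.36, higher in vEC_2 in 3 of 5 libraries, and this difference of 0.883 ± 2.45 was smaller than its spread (exact sign-flip p = 0.5). The phase calls, which set the lists of a cell against each other, differed more. Cells called G2/M made up 87.7% ± 2.78 of vEC_2 and 80.6% ± 4.04 of vEC_3 (SD, n = 5), a difference of 7.08 points in the same direction in 5 of 5 libraries. In WT 1 to WT 5 the G2/M share was 84.2, 87.9, 86.1, 88.7 and 91.6% in vEC_2 and 75.1, 77.9, 85.0, 83.2 and 81.9% in vEC_3. The 2 ranges overlapped, and WT 3 showed the smallest gap. Cells called S made up 12.2% ± 2.88 of vEC_2 and 18.0% ± 3.76 of vEC_3, lower in vEC_2 in 5 of 5 libraries. Both differences had an exact sign-flip p of 0.0625, the smallest that 5 libraries allow, so neither could pass 0.05. Only 1 of 1559 vEC_2 cells and 22 of 1424 vEC_3 cells were called G1, against 50.7% of aEC and 41.1% of vEC_4 cells. Of 2983 cells with a call, 362 lay within 0.05 of the score that parts S from G2/M. The calls are ranges of a score rather than types of cell, and 7 cells with fewer than 5000 UMIs had none. A comparison among G1 cells could not be fitted, since no library had more than 9 of them in a cluster.

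**Figure D1:**
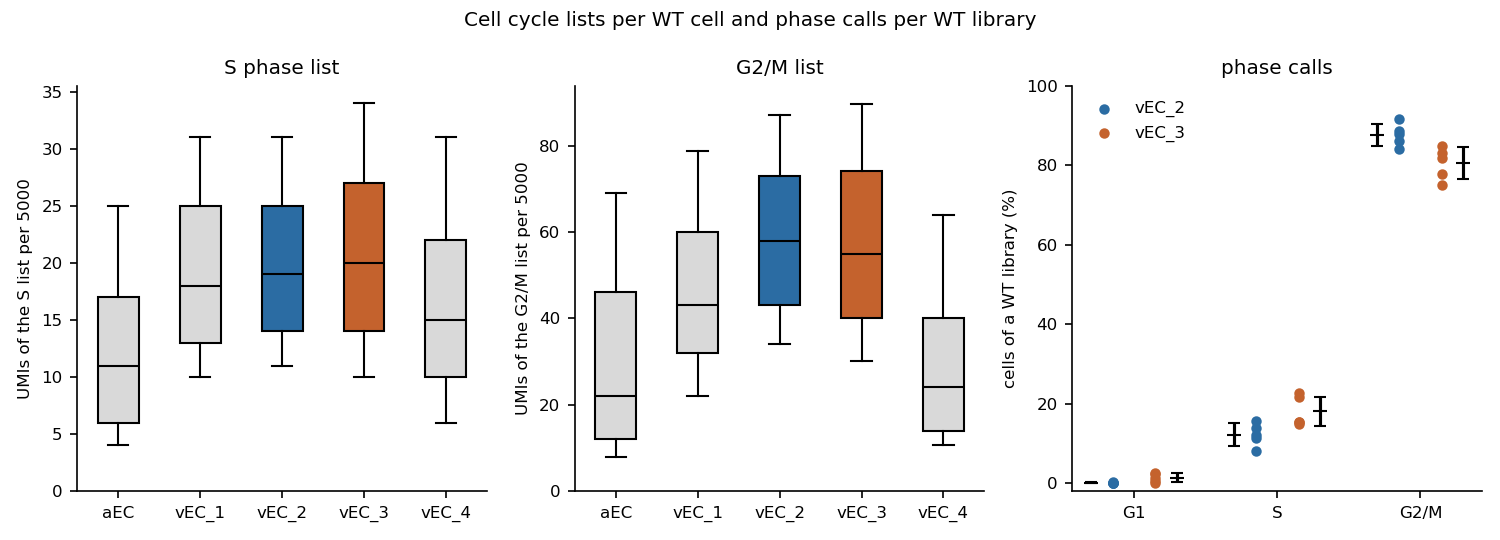
UMIs of the S phase list and of the G2/M list per WT cell after thinning to 5000 UMIs in 5 endothelial clusters (boxes, quartiles with the median; whiskers, percentiles 10 and 90), and the share of cells given each phase call in each of 5 WT libraries (points; bars, mean and SD). The boxes of vEC_2 and vEC_3 nearly coincide, with medians of 58 and 55 UMIs of the G2/M list, while aEC and vEC_4 lie lower.

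The cell cycle genes themselves differed little in the summed counts. Counts were summed over the cells of a cluster in each library and tested with the library as a block, so that each vEC_2 sum was set against the vEC_3 sum of the same embryos. In such a sum, fewer cells with a transcript and less of it per cell cannot be told apart. Since the clusters had been drawn on the same RNA counts, the adjusted p-values order the genes and are no independent evidence that the clusters differ. Of 10853 genes tested, 3831 passed an adjusted p of 0.1, which is 35.3%: 2125 (19.6%) were higher in vEC_2 and 1706 (15.7%) in vEC_3. Without the library block 1188 passed. The median size of difference was 0.115 over all genes tested and 0.234 over those that passed, on the log2 scale.

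Of the 43 S phase genes, 2 were higher in vEC_2, 12 in vEC_3 and 29 did not pass, with a median log2 difference of -0.07 beside 0.01 over all genes tested. The share of calls in this list was near the 35.3% of all genes tested. Over all genes 19.6% were higher in vEC_2 and 15.7% lower, and the list counts that follow for WT stand beside the same shares. Brip1, a helicase of DNA repair, was lower in vEC_2 by -0.28 ± 0.09 (log2, SE), and Dtl, which targets the licensing factor Cdt1 for destruction, by -0.24 ± 0.05. Gmnn, which encodes geminin, a brake on origin licensing, was higher in vEC_2 (0.10 ± 0.03). Among 17 genes of origin licensing and firing 2 were higher and 6 lower, the latter including the loader Cdc6 (-0.22). Of 8 genes of nucleotide supply 7 did not pass. Dut, which clears dUTP, stood at 0.03 (edgeR adjusted p = 0.466).

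Of the 54 G2/M genes, 20 were higher in vEC_2, 5 were lower and 29 did not pass, with a median of 0.08. Aurka, the kinase of spindle poles, averaged 108 CPM in vEC_2 and 89.3 CPM in vEC_3 and was higher by 0.28 ± 0.05. The mitotic kinase Cdk1 measured 440, 440, 414, 520 and 354 CPM in vEC_2 of WT 1 to WT 5 and 392, 386, 361, 484 and 295 CPM in vEC_3. It was higher in vEC_2 within every library, by 0.22 ± 0.03, although the 2 ranges overlapped. The checkpoint kinase Ttk was higher by 0.24 ± 0.06 and in 4 of 5 libraries. Hmgb2, the most abundant gene of the list, was higher by 0.16 ± 0.02, and Cks1b, a partner of cyclin-dependent kinases, stood at 0.02 (adjusted p = 0.616).

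The promoters of 3 G2/M genes that were higher in vEC_2 are shown to let the CHR element and CCAAT boxes be seen in genes of the list. They are the 3 with the largest difference among those whose RefSeq promoter entry begins from the outermost start of the gene and that hold a CHR element in the stretch printed. The stretch runs from 130 bases before to 20 bases after that start, 5′ to 3′ on the strand of the gene. Capitals mark TTTGAA and CCAAT and their reverse complements, TTCAAA and ATTGG. The sequences are those of RefSeq, build GRCm38.p6, at chr10:69352893-69353042 for Cdk1 (0.22), chr8:22185800-22185949 for Ckap2, a gene of a spindle protein (0.20), and chr4:118437324-118437473 for Cdc20, the activator of the anaphase-promoting complex (0.17), all on the minus strand.
Cdk1: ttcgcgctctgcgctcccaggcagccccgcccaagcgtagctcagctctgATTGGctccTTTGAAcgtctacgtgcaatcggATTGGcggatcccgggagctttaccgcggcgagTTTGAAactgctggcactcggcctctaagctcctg
Ckap2: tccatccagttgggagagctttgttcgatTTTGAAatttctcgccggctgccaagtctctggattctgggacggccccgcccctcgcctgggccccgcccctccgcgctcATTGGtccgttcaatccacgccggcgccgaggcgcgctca
Cdc20: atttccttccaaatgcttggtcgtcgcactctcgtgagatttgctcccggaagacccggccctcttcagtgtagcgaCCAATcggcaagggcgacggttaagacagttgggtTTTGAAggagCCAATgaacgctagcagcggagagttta

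Over 300-base promoters, searched on both strands and with 1 promoter a gene, TTTGAA was found in 32 of 46 G2/M genes with an entry (69.6%) and in 5 of 31 S phase genes (16.1%), beside 18.1% of all 27025 promoters and 11.4% of those of 8285 genes tested. CCAAT was found in 35 of the 46 (76.1%) and in 22 of the 31 (71.0%), beside 37.9% of all and 39.4% of those of genes tested. Of the 18 G2/M genes with an entry that were higher in vEC_2, 15 held TTTGAA. A match describes letters and not a bound site.

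The replication-dependent histone genes, whose RNA accumulates in S phase, leaned to vEC_3: of 19 tested, 0 were higher in vEC_2 and 11 were lower, with a median of -0.16. Hist1h1b, a linker histone, ranged from 149 to 1181 CPM in vEC_2 and from 207 to 1372 CPM in vEC_3, lower in vEC_2 in 5 of 5 libraries (-0.22 ± 0.03), with the lowest level of both clusters in WT 5. Histone genes are near-identical copies that lack long poly(A) tails, so their counts in a 3′ poly(A) assay are uncertain.

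Among the regulators that set the pace of the cycle, the D-type cyclins Ccnd1 and Ccnd2 differed in opposite directions, and Ccnd3 differed by 0.11. Ccnd1 measured 467, 397, 306, 351 and 444 CPM in vEC_2 of WT 1 to WT 5 against 320, 280, 216, 246 and 349 CPM in vEC_3, a difference of 0.53 ± 0.03. Ccnd2 measured 174, 114, 119, 145 and 154 CPM in vEC_2 against 268, 216, 230, 223 and 293 CPM in vEC_3, a difference of -0.74 ± 0.04. For Ccnd2 the clusters did not overlap, and for Ccnd1 they overlapped only between libraries. In all, 9 of 25 cyclins, CDKs and E2F factors were higher in vEC_2 and 5 were lower. Of 12 inhibitors and pocket proteins 0 were higher and 3 were lower, a share of calls below the 35.3% of all genes tested: Cdkn1c (p57), at 180 against 271 CPM and -0.55 ± 0.03, Btg1 (-0.28) and Btg2 (-0.40).

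The larger differences lay outside the S phase and G2/M lists. Past a 2-fold difference and an adjusted p of 0.1 stood 276 genes (2.54% of those tested), 94 higher in vEC_2 and 182 in vEC_3, and 0 of the 43 S phase and 54 G2/M genes were among them, since their differences ran from -0.28 to 0.28. Of the 276 genes, 267 moved the same way in all 5 libraries. The genes described next are the 12 with the largest difference each way among 1429 that passed, moved alike in all libraries and had an average log2 CPM of 5 or more.

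**Figure D2:**
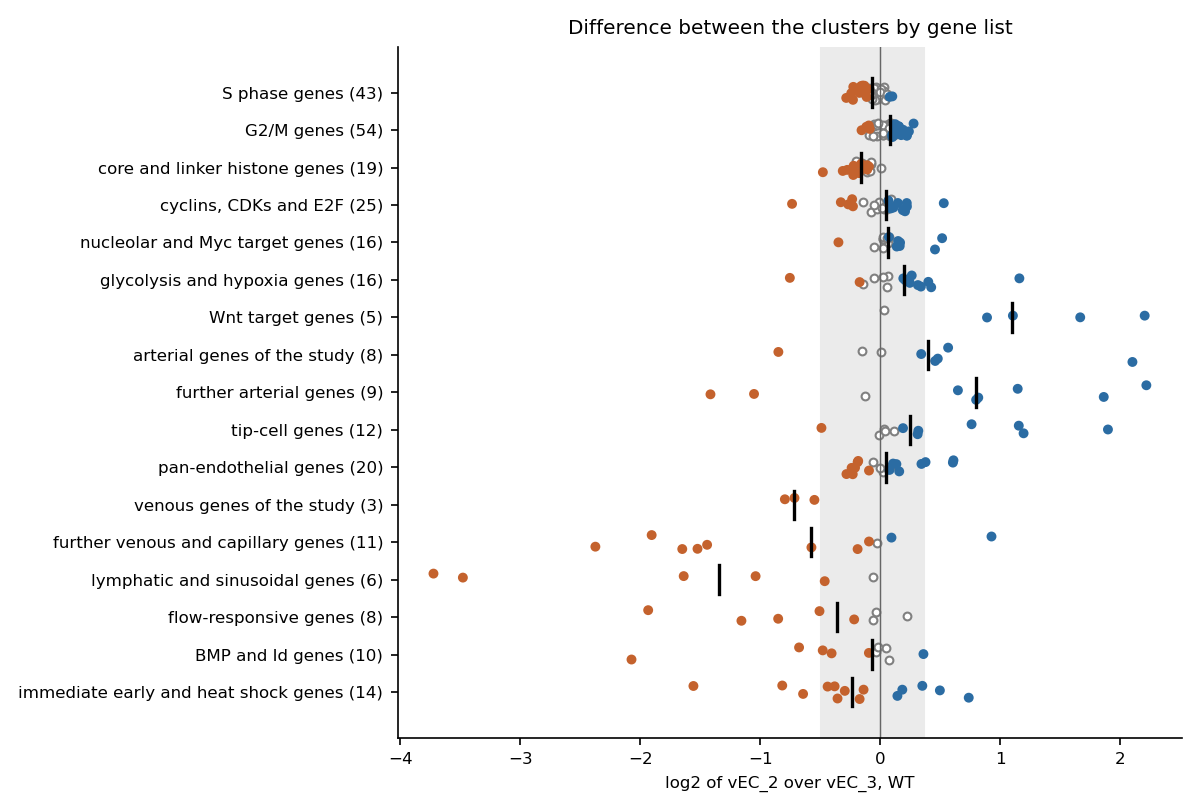
Difference between the clusters in WT (log2 of vEC_2 over vEC_3) for the members of 17 gene lists, with the number tested in brackets. Filled points passed an adjusted p of 0.1 (blue higher in vEC_2, orange higher in vEC_3), open points did not, black ticks are list medians, and the grey band holds the middle 90% of all 10853 genes tested. The S phase, G2/M and histone lists stay within the band, and the Wnt, arterial, venous and lymphatic lists reach beyond it.

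Among those higher in vEC_2, Kcne3, a potassium channel subunit found in sprouting tip cells, measured 75.4, 38.5, 28.5, 75.1 and 60.3 CPM in vEC_2 of WT 1 to WT 5 and 12.9, 8.09, 4.82, 32.1 and 8.03 CPM in vEC_3. WT 4 was high in vEC_3 and its value lay above the lowest vEC_2 value, but the vEC_2 value was the higher in 5 of 5 libraries (1.9 ± 0.12). Cdh2, which encodes N-cadherin, measured 100, 83.0, 141, 88.9 and 94.3 CPM in vEC_2 and 27.1 to 33.2 CPM in vEC_3 (1.78 ± 0.06). Fzd10, a Frizzled receptor for Wnt ligands (chr5:128601106-128604093), measured 44.5 to 68.9 CPM in vEC_2 and 16.9 to 22.2 CPM in vEC_3 (1.67 ± 0.07). The RIKEN transcript 5930412G12Rik (chr5:128579130-128600687), which ends 418 bases before the start of Fzd10, was also higher (1.21 ± 0.07). RefSeq, whose GRCm38.p6 coordinates these are, names it Fzd10os, so it is an antisense neighbour that does not overlap the gene.

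The glucose transporter Slc2a1 (GLUT1) measured 180, 170, 143, 187 and 158 CPM in vEC_2 against 72.9, 74.5, 54.4, 101 and 76.5 CPM in vEC_3 (1.16 ± 0.05), with no overlap. Lmo2, a bridging factor of endothelial and blood transcription complexes, was the most abundant of the 12 at 440 ± 21.9 CPM against 217 ± 14.3 CPM (SD, n = 5). The lectin receptor Clec1b, best known from platelets, averaged 293 against 119 CPM (1.34 ± 0.03). The remaining 5 were Bok, of the BCL-2 family (1.16), the Wnt-pathway factor Lef1 (1.10), Sepp1, which encodes the selenium carrier selenoprotein P (1.04), the metal transporter Slc39a8 (1.04) and Tsc22d1 (1.02). In 11 of the 12 the clusters did not overlap over the WT libraries, the exception being Kcne3. Over all genes tested 7.99% had no overlap.

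Among those higher in vEC_3, the imprinted gene Nnat measured 21.9 to 31.2 CPM in vEC_2 and 85.4 to 108 CPM in vEC_3 (-1.83 ± 0.06). The neuropeptide gene Nts differed by -1.77 ± 0.10 and the serine protease gene Prss23 by -1.74 ± 0.07. Dab2, an endocytic adaptor, measured 43.9, 50.4, 39.3, 38.9 and 40.6 CPM in vEC_2 of WT 1 to WT 5 and 145, 132, 142, 105 and 122 CPM in vEC_3 (-1.52 ± 0.05). The growth factor Igf1 measured 57.9 to 69.5 CPM in vEC_2 and 169 to 192 CPM in vEC_3 (-1.50 ± 0.04). Hoxa5, a positional homeobox gene, averaged 32.8 against 77.7 CPM (-1.15 ± 0.06). The others were the complement inhibitor Cd59a (-1.60), Col23a1 (-1.34), Tmem37 (-1.23), Ralgapa2 (-1.20) and Stmn2 (-1.18). For the 11 genes given here the WT libraries of the clusters did not overlap, beside 7.99% of all genes tested without overlap. The named genes of both directions were chosen for large differences with 1 direction in every library, which favours this.

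**Figure D3:**
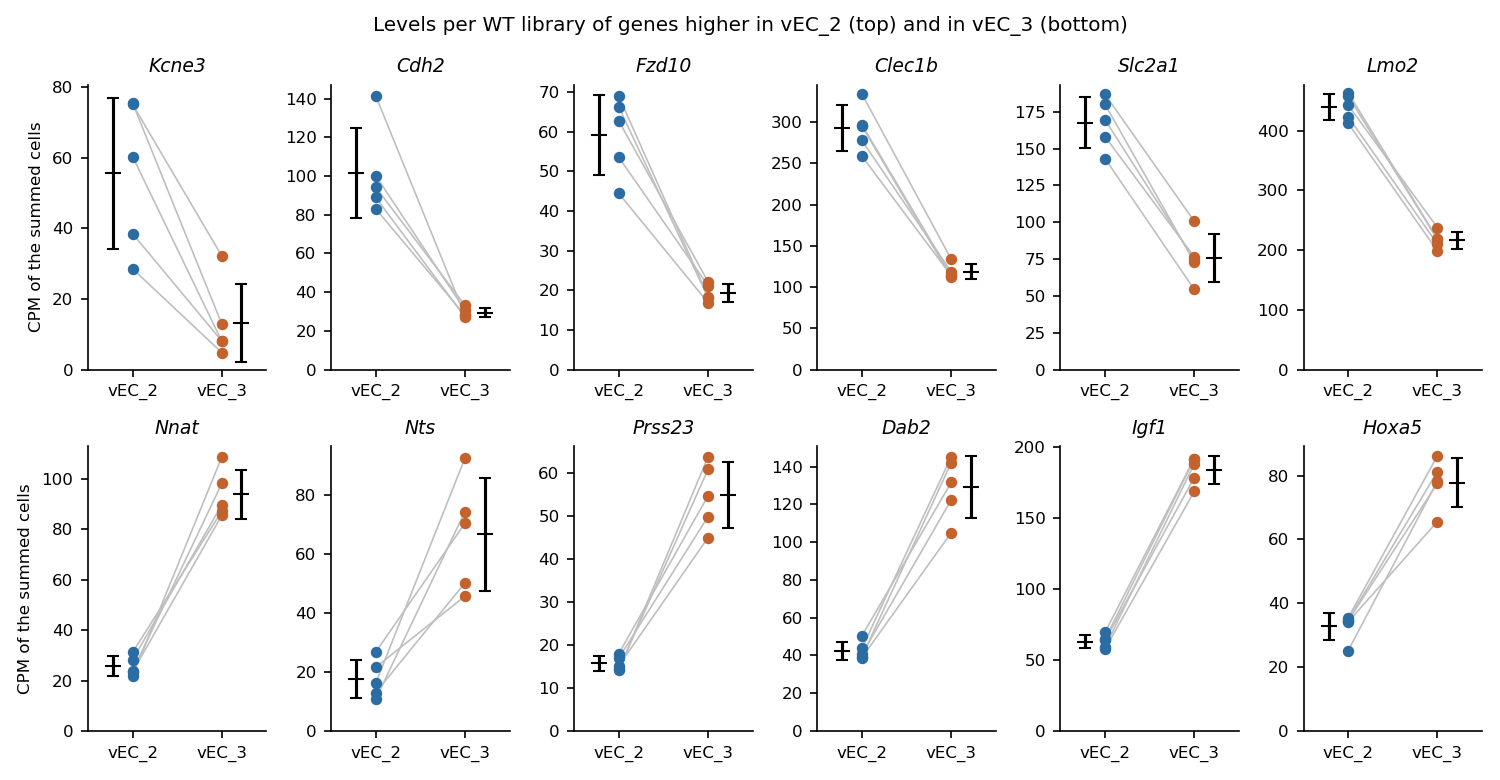
CPM of the summed cells of vEC_2 (blue) and vEC_3 (orange) in the 5 WT libraries for 6 genes higher in vEC_2 and 6 higher in vEC_3 among the 24 named; grey lines join the sums of a library, and bars give the mean and SD. Only Kcne3 has a vEC_3 library, at 32.1 CPM, above a vEC_2 library, at 28.5 CPM.

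Venous and lymphatic genes were higher in vEC_3. The 3 venous genes used by the study all were: Nr2f2 measured 137, 121, 102, 106 and 132 CPM in vEC_2 of WT 1 to WT 5 and 234, 225, 196, 182 and 239 CPM in vEC_3 (-0.80 ± 0.03), the receptor Nrp2 differed by -0.71 ± 0.03 and Ephb4 by -0.55 ± 0.06. The study had set these genes against its clusters in the same cells, so the list is not independent evidence of direction. Of 11 further venous and capillary genes 8 were higher in vEC_3 and 2 in vEC_2. Maf, a large Maf transcription factor, averaged 3.25 against 17.6 CPM (-2.37 ± 0.13) and Vwf, the von Willebrand factor of clotting, 3.79 against 15.8 CPM (-1.91 ± 0.14). Cd34, a sialomucin of endothelium and blood progenitors named here after its value was seen, went the other way at 532 against 288 CPM (0.93).

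Of 6 lymphatic and sinusoidal genes tested, 5 were higher in vEC_3 and 0 in vEC_2. Prox1, the master regulator of lymphatic fate, measured 5.54, 7.32, 1.95, 3.46 and 8.64 CPM in vEC_2 and 91.0, 54.1, 70.6, 39.2 and 59.0 CPM in vEC_3 (-3.48 ± 0.11). Lyve1, a hyaluronan receptor, measured 0.462 to 2.82 CPM in vEC_2 and 10.5 to 19.4 CPM in vEC_3 (-3.72 ± 0.18). With 43 UMIs in all of vEC_2, Lyve1 can pass the low-count filter through vEC_3 alone, so its call is a description. The Prox1 and Lyve1 levels were those of a minority of cells. At 5000 UMIs per cell, 16.2% ± 3.96 of vEC_3 cells held a Prox1 UMI, 1.9% ± 0.984 of vEC_2 cells and 0.706% ± 1.14 of erythro-myeloid progenitors (EMP), a blood cell type that should lack it (SD, n = 5). Without thinning the shares were 29.5, 8.26 and 4.62%, at median depths of 26200, 26900 and 46000 UMIs. For Lyve1 the shares at 5000 UMIs were 6.17% in vEC_3 and 0.922% in vEC_2, with 1 of 390 EMP cells, and for Nr2f2 they were 61.4% in vEC_3, 40.9% in vEC_2 and 0.374% in EMP. The mean vEC_2 shares for Prox1 and Lyve1 were low but above those of EMP, and the share for Nr2f2 was well above. At 5000 UMIs the library ranges overlapped for Prox1 (0.606 to 2.97% in vEC_2, 0 to 2.63% in EMP). For Lyve1 the EMP range of 0 to 2.63% held the whole vEC_2 range of 0.383 to 1.62%. Its vEC_2 share at that depth was thus not clear of the EMP level. Without thinning Lyve1 stood at 2.3% in vEC_2 and 0.513% in EMP.

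Arterial genes leaned to vEC_2, at low levels. Of 8 arterial genes of the study that were tested, 5 were higher in vEC_2 and 1 in vEC_3, with a median of 0.40, and the study had set these too against its clusters. Dll4 measured 7.47, 7.72, 3.72, 9.35 and 6.01 CPM in vEC_2 of WT 1 to WT 5 and 1.31, 1.99, 1.70, 2.43 and 0.634 CPM in vEC_3 (2.10 ± 0.18), far under the 46.5 CPM of aEC. Notch1, the Notch receptor, stood at 60.1 and 62.6 CPM (0.00, adjusted p = 0.962), and Vegfc, a ligand for lymphatic growth, was lower in vEC_2 (-0.85 ± 0.15). The other 4 that were higher were Nrp1 (0.34), the Notch receptor Notch4 (0.48), the ligand Efnb2 (0.46) and the hypoxia factor Epas1 (0.57). Of 9 further arterial genes tested 6 were higher in vEC_2, among them Sox17 (0.82), the semaphorin Sema3g (2.22) and the Notch ligand Jag2 (1.86). The 2 that were lower were the Notch ligand Dll1 (-1.42) and the netrin receptor Unc5b (-1.05). Sema3g, Jag2 and Dll4 had 27, 42 and 70 UMIs in all of vEC_3. Genes so low there can pass the low-count filter through vEC_2 alone, which favours that direction, so their calls are a description. At 5000 UMIs a Dll4 UMI was found in 3.38% of vEC_2, 0.875% of vEC_3, 17.9% of aEC and 0 of 390 EMP cells, which allows a share of EMP cells with a UMI at that depth of up to 0.769%. Without thinning the shares were 15.4% in vEC_2, 4.13% in vEC_3 and 1.28% in EMP.

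Wnt target genes had the highest list median, 1.10, with 4 of 5 tested higher in vEC_2 and 0 lower. Lef1 measured 60.6, 57.6, 70.5, 58.7 and 60.1 CPM in vEC_2 and 29.7, 26.7, 30.3, 27.2 and 33.8 CPM in vEC_3. Axin2, a feedback inhibitor that Wnt signalling switches on, measured 5.45 to 8.33 CPM in vEC_2 and 0.845 to 1.84 CPM in vEC_3 (2.20 ± 0.19). With 57 UMIs in all of vEC_3, Axin2 too can pass the low-count filter through vEC_2 alone, so its call is a description. Tcf7, a partner of Lef1 in kind, averaged 14.4 against 4.64 CPM (1.67 ± 0.12), and Nkd1, another feedback inhibitor, differed by 0.89 ± 0.11. A Lef1 UMI was found at 5000 UMIs in 24% ± 2.71 of vEC_2 cells, 10.9% ± 2.65 of vEC_3 cells and 1.72% ± 1.16 of EMP cells. The other 4 of the 9 list members were too low to test.

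Flow and BMP genes that passed were mostly higher in vEC_3, and stress genes were split. Of 8 flow-responsive genes 5 were higher in vEC_3 and 0 in vEC_2: Edn1, which encodes endothelin-1, measured 4.66 to 19.1 CPM in vEC_2 and 29.8 to 65.2 CPM in vEC_3 (-1.93 ± 0.08), and the shear-induced factors Klf4 and Klf2 differed by -1.16 ± 0.08 and -0.51 ± 0.04. Of 10 BMP and Id genes 5 were higher in vEC_3 and 1 in vEC_2, and Bmp4 itself averaged 11.8 against 51.8 CPM (-2.07 ± 0.07). All 14 immediate early and heat shock genes, which tissue dissociation is known to induce, passed the test, 5 higher in vEC_2 and 9 in vEC_3 (median -0.23). In each tertile of cell cycle load described below, 11 of the list were tested. In the low, middle and high tertile 4, 2 and 3 were higher in vEC_2 and 4, 5 and 3 lower. The medians there were -0.23, -0.17 and -0.04. In Mff_Cre 4 of 12 tested were higher and 2 lower, with a median of 0.26. Fos differed by -0.82 ± 0.14 and Fosb by -1.56 ± 0.25, and Ier2 by 0.18 ± 0.03. Their sum was 606 to 739 CPM in vEC_2 and 615 to 767 CPM in vEC_3, and its part in the other differences was not tested.

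The counts of this paragraph stand beside 19.6% of all genes tested higher in vEC_2 and 15.7% lower. Of 16 glycolysis and hypoxia genes 9 were higher in vEC_2, among them Ldha (0.26) and Gapdh (0.21), and 2 were lower, including Vegfa (-0.75 ± 0.14). Of 16 nucleolar and Myc target genes 7 were higher and 1 lower, the latter being Myc itself (-0.35 ± 0.06). Npm1, which encodes nucleophosmin, was higher by 0.16 ± 0.02 at 4752 CPM in vEC_2, Odc1, the enzyme that opens polyamine synthesis, by 0.46 ± 0.04 and Mycn by 0.52 ± 0.06. Of 12 tip-cell genes 7 were higher in vEC_2 and 1 lower, with Pdgfb, the growth factor that recruits pericytes, at 1.19 ± 0.08 and Col4a1 at 0.19 ± 0.03. Of 9 p53 target genes 1 was higher and 3 were lower, the apoptosis gene Bax being the higher one (0.11 ± 0.03), a share of calls near that of all genes. Of 3 endocardial genes tested Hapln1 was higher in vEC_2 (0.61) and the other 2 were lower. Pan-endothelial genes were split, 8 higher and 7 lower of 20, with Ets1 and Esam at 0.61 ± 0.03 and 0.60 ± 0.04 and Ramp2, a co-receptor for adrenomedullin, at -0.28 ± 0.03.

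Below the level that the naming rule required, some genes of low level were nearly absent from 1 of the clusters. These genes were chosen after their values were seen, and such genes can pass the low-count filter through 1 cluster alone. Foxq1, a forkhead factor, measured 6.39 to 15.8 CPM in vEC_2 and 0.263 to 1.13 CPM in vEC_3 (4.14 ± 0.23), and Zic2, a zinc-finger factor, 6.81 to 9.98 CPM against 0.142 to 1.06 CPM (3.96 ± 0.25). Vwa1 (3.16) and the carbonic anhydrase gene Car2 (2.98) followed. In the other direction Adgrg6, an adhesion receptor, measured 0.563 to 1.06 CPM in vEC_2 and 11.5 to 18.7 CPM in vEC_3 (-4.07 ± 0.18). Cldn11, which encodes a claudin, and Fam124a had more negative fitted values (-5.28 and -4.30), with 4 and 8 UMIs in all of vEC_2 against 165 and 151 in all of vEC_3. At 5000 UMIs a Foxq1 UMI was held by 3.45% of vEC_2 cells, 0.442% of vEC_3 cells and 45.5% of aEC cells.

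The genes that parted vEC_2 from vEC_3 were mostly highest in aEC or in vEC_4. A steady order over all 5 endothelial clusters was not tested. Of the 94 genes with a 2-fold higher level in vEC_2, 88 had their highest mean CPM in aEC, 4 in vEC_1 and 2 in vEC_2 itself. Of the 182 with a 2-fold higher level in vEC_3, 165 had it in vEC_4, 16 in vEC_3 and 1 in aEC. Over all 10853 genes tested the highest mean lay in aEC for 26.8% and in vEC_4 for 32.2%. The mean CPM of vEC_1 was above that of vEC_4 for 94 of the 94 genes and for 0 of the 182. Cdh2, for example, averaged 436 CPM in aEC, 185 in vEC_1, 102 in vEC_2, 29.5 in vEC_3 and 24.7 in vEC_4, and Lyve1 0.361, 1.76, 1.24, 15.3 and 86.5 CPM. The neighbours vEC_3 and vEC_4 did not differ beyond their spread for Cdh2, with ranges of 27.1 to 33.2 and 17.7 to 32.1 CPM. All 5 clusters came from the same clustering, and aEC and vEC_4 held fewer UMIs and more G1 cells, so these levels are a description.

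**Figure D4:**
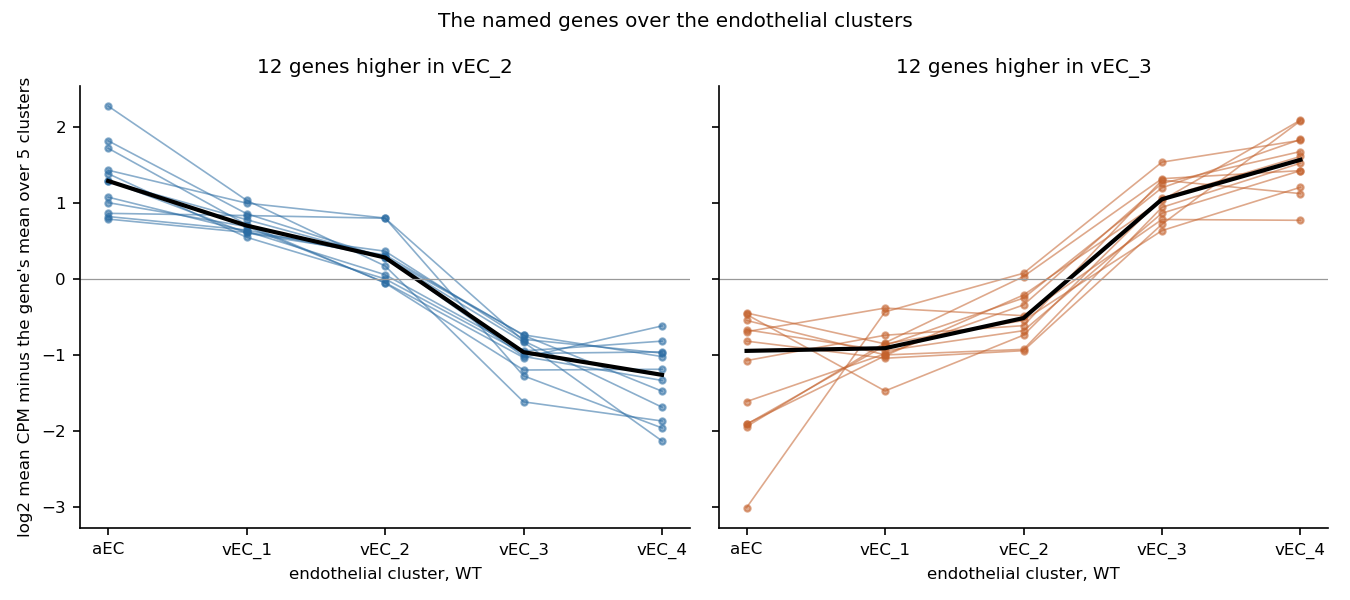
Mean CPM over 5 WT libraries of the 24 named genes in 5 endothelial clusters, as log2 minus the gene's mean over the clusters (thin lines, genes; black line, median). Genes higher in vEC_2 tend to step down from aEC to vEC_4 and genes higher in vEC_3 tend to step up. The steepest step is between vEC_2 and vEC_3, the pair the genes were chosen on.

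Single cells of the clusters overlapped in the levels of the named genes. At 5000 UMIs the 12 genes higher in vEC_2 gave a median of 9 UMIs in a vEC_2 cell and 4 in a vEC_3 cell, and the 12 genes higher in vEC_3 gave 2 and 5. The log2 balance of the former over the latter, each with 1 added, had a median of 2.00 in vEC_2 and -0.22 in vEC_3, with medians of 3.46 in aEC, 2.74 in vEC_1 and -0.81 in vEC_4. The balance was above 0 in 93.3% of vEC_2 cells and in 37.6% of vEC_3 cells. Within each WT library a vEC_2 cell had the higher balance in 88.5 to 92.1% of pairs with a vEC_3 cell. The genes had been chosen on these cells, so the values describe the overlap and test nothing.

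**Figure D5:**
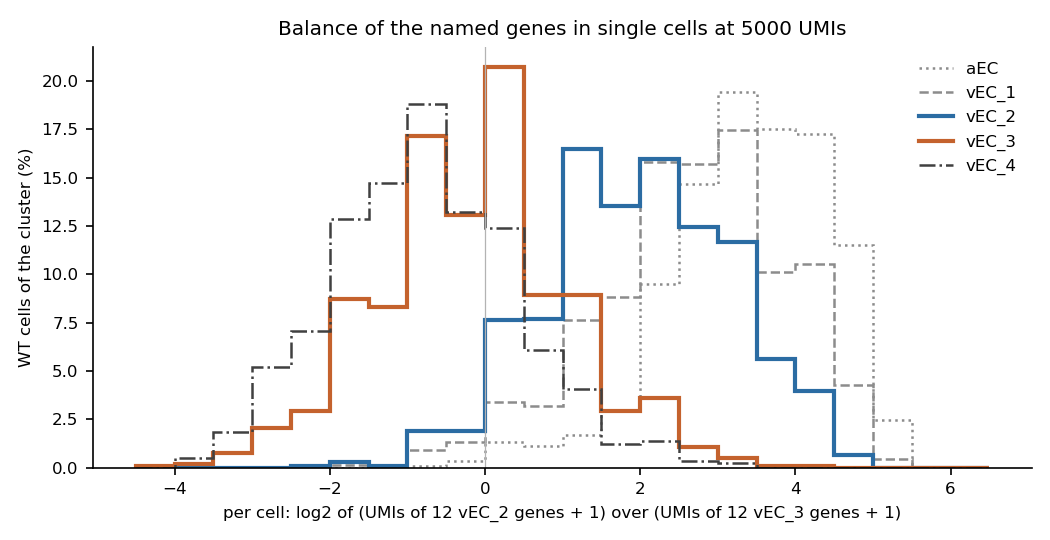
Share of WT cells of each endothelial cluster by the log2 ratio of UMIs of the 12 genes higher in vEC_2 to UMIs of the 12 genes higher in vEC_3, 1 added to each, after thinning to 5000 UMIs. The histograms of vEC_2 (blue, median 2.00) and vEC_3 (orange, median -0.22) overlap, and each leans to its neighbour, vEC_1 or vEC_4.

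Most of the larger differences that could be tested were also seen among cells with a like cell cycle load, and those of the arterial lists in part. Cells of both clusters in a library were ranked together by their UMIs of the S phase and G2/M lists and parted into 3 tertiles, a comparison added after the data had been seen. In the low tertile 1096 of 8996 genes passed (12.2%), in the middle one 1836 of 9064 (20.3%) and in the high one 2200 of 9386 (23.4%). Of the 276 genes with a 2-fold difference, 138, 142 and 167 had counts enough to be tested there. All of these kept their direction in each tertile, and 132, 141 and 167 passed. Of the 276 genes, 124 (44.9%) passed the same way in all 3 tertiles. The others did not pass or could not be tested in at least 1. The genes had been chosen on the same cells and libraries, so this agreement was largely fixed beforehand and is a description. For the same genes the median size of the difference was 1.19 in the low tertile beside 1.33 in all cells, and 1.58 in the high tertile beside 1.35. Prox1 differed by -3.17, -3.42 and -3.85 in the low, middle and high tertile, Fzd10 by 1.42, 1.80 and 1.71 and Slc2a1 by 0.86, 1.13 and 1.38. The 3 venous genes of the study were higher in vEC_3 in each tertile. Of its arterial genes 7 could be tested in each tertile, and 1, 3 and 4 were higher in vEC_2 and 1, 1 and 2 lower in the low, middle and high one. Of the further arterial genes 5 could be tested, without Sema3g and Jag2, and 2 were higher and 2 lower in each tertile, with medians of -0.22, -0.09 and -0.13.

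The histone and G2/M lists had different counts by tertile. For the histones, 6 of 17 in the low tertile were higher in vEC_2 and 0 lower, with a median of 0.12. In the middle tertile 0 of 16 were higher and 11 lower (-0.27), and in the high tertile 0 of 17 were higher and 13 lower (-0.42). Hist1h1b differed by 0.23 in the low tertile and by -0.48 and -0.53 in the others. The G2/M list had 20 genes higher in vEC_2 and 0 lower in the low tertile, 21 and 3 in the middle and 8 and 9 in the high tertile, with medians of 0.15, 0.15 and -0.03. Whether these differences between tertiles pass a test of their own was not tested, and the tertiles were set with genes of the S phase and G2/M lists themselves.

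Among WT cells given the same phase call the picture was the same in kind. Among cells called S 739 of 7523 genes passed (9.82%), and among cells called G2/M 3414 of 10551 (32.4%). Of the 276 genes with a 2-fold difference, 91 could be tested in S cells, of which 90 passed in the same direction, and 248 in G2/M cells, of which 248 did. These cells are part of those above and add no independent libraries.

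In the Mff_Cre libraries, which the comparison above had not used, vEC_2 held 1144 cells and vEC_3 1058, and 2596 of 10382 genes passed (25.0%; 528 without the library block). Of the 276 genes, 234 were tested there, 233 had the same direction and 220 passed in it. Clusters were drawn on WT and Mff_Cre cells together, so the genes that define them are shared by construction. Prox1 differed by -3.30 in Mff_Cre beside -3.48 in WT, Fzd10 by 1.62 beside 1.67, Dll4 by 1.77 beside 2.10 and Nr2f2 by -0.79 beside -0.80. Of the venous genes of the study 3 of 3 were again higher in vEC_3, of the Wnt targets 4 of 5 were higher in vEC_2, and of the G2/M list 15 were higher and 5 lower. Of 18 histone genes 1 was higher and 3 were lower, beside 0 and 11 of 19 in WT. Their median was -0.19 in Mff_Cre and -0.16 in WT. The 3 Mff_Cre libraries held median UMIs per cell of 9611.5 to 14895 over all their cells, beside 12720.5 to 28553 in the 5 WT libraries. Counts of calls in the 2 genotypes are therefore not directly comparable. The immediate early and heat shock list, with more genes lower than higher in WT, had 4 genes higher and 2 lower, and whether the lists differ between genotypes was not tested. A test of whether the cluster difference itself differed between WT and Mff_Cre embryos found 2 past an adjusted p of 0.1 among 11105 genes (0.0180%). By edgeR 549 genes lay below 0.05 before adjustment, and DESeq2 called 0. Neither of the 2, Dqx1 and Gm7120, was among the genes described above.

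The surface proteins give a readout apart from the RNA on which the clusters were drawn. Tags were counted in WT 1, WT 2, WT 3 and WT 5, and their total in WT 4 was 0. The tag of CD44 was counted in WT 5 alone of the WT libraries (5.18 counts per vEC_2 cell and 5.79 per vEC_3 cell) and was not compared. Tag counts per cell were lower in vEC_2 than in vEC_3 in 4 of 4 libraries for CD117 (KIT), CD43, CD45.2 and CD27, and in 3 of 4 for CD41. CD45.2, the pan-leukocyte protein, gave a mean of 57.2, 75.8, 34.8 and 9.31 counts per vEC_2 cell and 71.7, 96.2, 37.7 and 11.1 counts per vEC_3 cell in WT 1, WT 2, WT 3 and WT 5, a log2 ratio of -0.26 ± 0.10 (SD, n = 4). CD117 gave 52.3, 47.6, 22.3 and 8.08 counts against 56.3, 57.0, 25.3 and 9.82 (-0.21 ± 0.08). In the 3 Mff_Cre libraries CD45.2 was again lower in vEC_2, by log2 ratios of -0.30, -0.28 and -0.34, while those of CD117 were -0.18, -0.02 and 0.01. With 4 libraries the exact sign-flip p cannot go below 0.125, the value of these 4 tags, or 0.156 after Benjamini-Hochberg adjustment over 5 tags. In cells of the EHT cluster, which turn from endothelium to blood, CD43 gave means of 160 to 533 counts in the same libraries, beside 5.64 to 45.9 in vEC_2. For CD45.2 the EHT means of 8.36 to 96.5 were near those of the 2 clusters. The RNA of Ptprc, which encodes CD45, stood at 8 UMIs in all of vEC_2 and 9 in all of vEC_3.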

How the data were processed

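Cells of E10.5 AGM sorted for CD31 were profiled by CITE-seq (5 WT and 3 Mff_Cre libraries, each a pool of 2 to 5 embryos). According to the labels and the study's methods, the authors aligned reads with Cell Ranger 3.0.2 to mm10 (the submitters' processing notes), filtered cells on genes and mitochondrial share, and integrated and clustered them with Seurat. The deposited values are raw UMI counts per gene and cell and tag counts per cell. The deposited annotation gave clusters and libraries.

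Counts were summed per library and cluster and compared by the quasi-likelihood test of edgeR 4.0.16 under R 4.3.3 (TMM scaling, the filterByExpr filter, library as a block, Benjamini-Hochberg adjusted p under 0.1, sums of at least 10 cells). Values per library used exact two-sided sign-flip permutation tests. Cells were thinned to 5000 UMIs for cycle scores (scanpy 1.11.5), shares and the balance. Doublets were called with Scrublet (83 of 15168 cells, 0.55%) and kept. The block rests on both sums coming from the same embryos: same-library deviations correlated at 0.398 to 0.707, and no other pair of libraries correlated above 0.193. Replicates are pools of embryos. With the library as a block, p-values rest on how the difference within a library varies between pools, and edgeR moderates that spread over genes. Intervals and the limit of 3 counts behind a 0 cover counting error only.

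Members and gene lists were chosen with earlier results of these data known. Named genes were the 12 largest differences each way with a mean log2 CPM of 5 or more and 1 direction in every library, plus 2 to 4 examples a list. Of these, 1 gene that met the rule is not reported here, though counts and figures over the named genes include it. Genes named beyond these (Foxq1, Zic2, Vwa1, Car2, Adgrg6, Cldn11, Fam124a, Ckap2, Ccnd3, Cd34, Notch4, Efnb2, Epas1, Ephb4, Dll1, Unc5b, Cdh5, Meis1, Dqx1 and Gm7120) were chosen after their values were seen. The test was checked on simulated counts. Alternatives were DESeq2 1.42.0, RLE scaling, no filter, thinned cells, no block, Bonferroni adjustment and leaving out each library. The G1 comparison was not run. Promoters came from RefSeq GRCm38.p6, with 1 start per gene, at the outermost start of the gene for those printed.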

Additional observations from a re-analysis of the deposited data

Results flagged for a closer look

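In 36 groups of per-library values, 5 held a library far from the others, where chance gives about 1 in 20. The log2 difference of Cdh2 was 2.31 in WT 3 against 1.49 to 1.69 in the other libraries. Bok differed by 0.863 in WT 5 and by 1.14 to 1.19 in the others. Tmem37 differed by -1.1 in WT 3 and by -1.28 to -1.31 in the others. All 3 genes kept their direction in every library. Median UMIs per cell were higher in vEC_2 by 5723 in WT 3 and by 351.5 to 785.5 in the others. The share of ribosomal protein UMIs was lower in vEC_2 in WT 4 (-0.385 points) and higher in the other 4 libraries.

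The cluster difference differed between Mff_Cre and WT embryos by a test of the difference itself for 2 genes. For Dqx1 it was greater in Mff_Cre by 1.64 ± 0.33 (log2, SE; edgeR adjusted p = 0.0754), with values from -2.27 to 0.505 in the WT libraries and from 0.304 to 1.32 in the Mff_Cre libraries. For Gm7120 it was greater by 2.77 ± 0.57 (edgeR adjusted p = 0.0754). Its sums held 2 to 7 UMIs each in WT 1 to WT 4, and Mff_Cre 3 alone held 119 in vEC_2. In WT 5, the WT library with fewer UMIs per cell, vEC_2 and vEC_3 held 12 and 35 UMIs. That was 2.25 and 7.40 CPM, beside 0.284 to 0.567 CPM in WT 1 to WT 4. Both calls were lost with DESeq2 and without the library block.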

How the results depend on the processing

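The number of genes that passed between vEC_2 and vEC_3 in WT, 3831 with the replicate block of libraries, was 1053 with Bonferroni adjustment, 1211 with cells thinned to 5000 UMIs, 2044 with DESeq2, 1188 with no replicate block and 276 with a 2-fold limit. Without 1 library in turn it was 3085 to 3510. DESeq2 and no replicate block gave 366 and 308 in the low tertile (804 to 1060 without a library), 232 and 216 among cells called S (486 without WT 1 to 649 without WT 3), 1704 and 1062 among cells called G2/M (2758 to 3177) and 658 and 528 in Mff_Cre (1571 without Mff_Cre 3 to 2428). The test of the difference between genotypes gave 0 with DESeq2 (91 at an unadjusted p under 0.05), 14 with no filter on low counts, 0 with no replicate block and 0 to 7 without a library (0 without WT 1 or Mff_Cre 3, 7 without WT 3, 1 without WT 2, 5 without WT 4 or WT 5). The median number of genes per cell, higher in vEC_2 by 19.9, reversed to -28 without WT 3 and was up to 47.6 without another library. Ube2s, from a list of the anaphase-promoting complex and its targets and not in the G2/M list, turned to -0.00384 with thinned cells. The 24 named genes kept direction and call in 312 alternative values in WT, 216 in the low tertile and 168 in Mff_Cre. The cause of these changes was not tested. The comparison among G1 cells, its alternatives, and the one among cells with at most 1 UMI of the cycle lists were not run, with too few cells. Depth limits shares of low genes such as Dll4 and Prox1.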
